A study of Mus musculus with 8 samples.

Results

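Tetraspanins are small membrane proteins that cross the membrane repeatedly and gather integrins, immunoglobulin-superfamily receptors and signalling enzymes into patches of the cell surface. Leukocytes carry a set of them, of which some are found almost only in blood cells, and mouse T cells that lack Tspan32, Cd37 or Cd81 are known to proliferate more after stimulation of the antigen receptor. The genes described here are the 10 listed as Tspan32, Tspan31, Tspan13, Cd9, Cd37, Cd53, Cd63, Cd81, Cd82 and Cd151, taken by symbol from a table of 11354 genes. A row was present for 9 of the 10, and all 9 passed the filter on low counts. Cd63, a tetraspanin of late endosomes, was not analysed here. Of 21 other tetraspanin genes looked up beside them, 6 were measured.

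The libraries are poly(A) RNA-seq of CD4 T cells recovered from RAG-/- hosts, mice that lack T and B cells, after transfer; the strain background is given as Black6. In 4 libraries (KO 1, KO 2, KO 4 and KO 5, numbered by host) the transferred cells are labelled Nlrp6-/-, and in 4 (WT 1, WT 2, WT 4 and WT 5) they are labelled wild type. The RAG deficiency of the host is common to both sets. Each library of a label has a host number of its own. The sample descriptions carry a code 8 for KO 4 and KO 5 and a code 7 for the other 6 libraries, all those labelled WT included. The labels name the host spleen as the source in one field and the colonic lamina propria in another, and give neither the age of the mice nor the targeted allele. They do not say whether libraries that share a host number came from a single animal.

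Totals ranged from 35198192 to 40310721 counts per library, and the measured tetraspanins of the list held between 123 and 33615 counts in a library. Nlrp6, which encodes a NOD-like receptor, went against the labels, with 487, 329, 477 and 648 counts in KO 1, KO 2, KO 4 and KO 5 and 5, 3, 3 and 8 counts in WT 1, WT 2, WT 4 and WT 5. Every direction below is therefore that of a library's label and not of a genotype. T cell identity was plain in all libraries: Cd3e was at 504 ± 26.6 CPM (counts scaled by effective library size) in the libraries labelled KO and 527 ± 39.7 CPM in those labelled WT (SD, n = 4 each). Cd247 and Zap70 were lower under the KO label, by log2 fold changes of -0.397 ± 0.106 and -0.267 ± 0.065 (SE, edgeR adjusted p = 0.0444 and 0.0304). Markers of macrophages and monocytes were higher under the KO label for 17 of 20 genes and lower for 0 (edgeR adjusted p below 0.05). Of all genes, 6.20% were higher and 3.84% lower. Cd68, Cx3cr1 and Ccr2 did not pass (log2 fold changes 0.61, -0.075 and 0.092, edgeR adjusted p = 0.0999, 0.872 and 0.693). The summed level of the 20 markers was 843.2, 1099, 1674 and 1329 CPM in KO 1, KO 2, KO 4 and KO 5 and 533.3 to 659.7 CPM in the libraries labelled WT. Most of the sum under the WT label was Ccr2, at 428 ± 63.2 CPM there and 456 ± 49 CPM under the KO label. The sum thus understates the change of the other markers: the median log2 fold change of the 20 was 3.29. Csf1r, for example, was at 67.7 ± 31.6 CPM under the KO label and 4.38 ± 1.25 CPM under the WT label. Of 11 listed dendritic cell markers 7 were measured and 5 were higher, all genes of MHC class II presentation (H2-Aa, H2-Ab1, H2-Eb1, Cd74 and Ciita). Itgax and Zbtb46 did not pass (edgeR adjusted p = 0.405 and 0.833). Neutrophil markers were higher for 4 of 7, while Mmp9, Ngp and Ltf did not pass (edgeR adjusted p = 0.196, 0.0986 and 0.108). Of 8 B cell markers 0 were measured here, and of 9 platelet markers 2 were. Itga2b was higher, at 2.25 ± 0.284 CPM under the KO label and 1.15 ± 0.155 CPM under the WT label (edgeR adjusted p = 0.00623). Itgb3 did not pass (log2 fold change 0.10 ± 0.05, edgeR adjusted p = 0.212).

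Of the 9 tetraspanins measured, Tspan32 alone passed the test, lower under the KO label. Tspan32, also called Tssc6 or Phemx, is a tetraspanin of blood cells. Among the 6 others measured, Tspan5 was lower as well. For each gene the 250 bases before the transcript start in a RefSeq promoter table (GRCm38.p6) were searched. That start can lie inside the gene's widest RefSeq span, and 5 of the 15 windows reach into that span, 139 bases of the Tspan32 window and all 250 of the Tspan5 window among them. The 111 bases of the Tspan32 window that lie before the span are shown, since it is the listed gene that passed. Capitals mark CCGGAA, a core of ETS factor sites, here read on the opposite strand.
Tspan32, chr7:143004796-143004906, plus strand: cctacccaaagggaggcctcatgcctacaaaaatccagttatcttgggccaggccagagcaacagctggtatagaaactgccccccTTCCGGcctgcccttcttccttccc

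The whole Tspan32 window held the ETS letters 1 time and TGTGGT, a core of RUNX factor sites, 2 times, with no overlap between them. Both RUNX matches were in the 139 bases not shown, and the Tspan5 window held neither motif. The E-box letters CANNTG, left in lower case, were in the Tspan32 window 1 time and not in that of Tspan5. Of the 15 measured tetraspanins, 5 had CCGGAA, 4 had TGTGGT and 9 had CANNTG, and of 27025 windows of this length over all genes 12.2%, 14.2% and 66.0% did, on either strand. The base composition of the windows differed too, at 55.6% G and C with 1 CpG dinucleotide for Tspan32 and 70.8% with 33 CpG dinucleotides for Tspan5. The windows of the other measured tetraspanins had 2 to 24 CpG dinucleotides. These matches describe letters, and binding was not measured.

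The levels of the family differed widely when divided by gene length. Cd82 (known as the metastasis suppressor Kai1) was at 346 ± 9.41 CPM per kb under the KO label and 374 ± 6.25 CPM per kb under the WT label (SD, n = 4 each). Cd53, a pan-leukocyte tetraspanin, followed at 304 ± 40.0 CPM per kb under the KO label and 272 ± 14.9 CPM per kb under the WT label. Together Cd82 and Cd53 made up 69.5 ± 1.36% of the length-scaled level of the 15 tetraspanins under the KO label and 68.6 ± 0.0865% under the WT label. Most of the length-scaled tetraspanin RNA thus came from these 2 genes under either label.

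A middle tier held Tspan14, Cd37, Tspan13 and Tspan31. Tspan14 led it at 71.5 ± 2.22 CPM per kb under the KO label and 76.2 ± 2.23 CPM per kb under the WT label (SD, n = 4 each). Tspan31 closed it at 45.9 ± 3.53 CPM per kb under the KO label and 39.9 ± 3.93 CPM per kb under the WT label. Tspan3 and Cd9 lay lower, at 16.3 ± 1.76 and 11.0 ± 1.43 CPM per kb under the KO label and 17.4 ± 3.34 and 10.9 ± 0.607 CPM per kb under the WT label. The lowest tier under the KO label held Tspan5, Rom1, Tspan32, Cd151, Cd81, Tspan2 and Tspan4, from 8.04 CPM per kb for Tspan5 to 0.926 CPM per kb for Tspan4. Under the KO label the libraries of Cd82 and Cd53 overlapped, as did those of Tspan14 and Cd37, of Tspan13 and Tspan31, of Rom1 and Tspan32, and of Tspan32 and Cd151. Under the WT label Cd82 lay above Cd53 in every library. There Tspan5, at 11.5 ± 1.37 CPM per kb, ranked above Cd9, and its libraries overlapped those of Cd9 and of Tspan3. Tspan32, at 7.94 ± 1.05 CPM per kb, stood above Rom1 in rank and clear of it. The WT-labelled libraries of Cd81 overlapped those of Tspan32, Rom1 and Cd151.

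**Figure D1:**
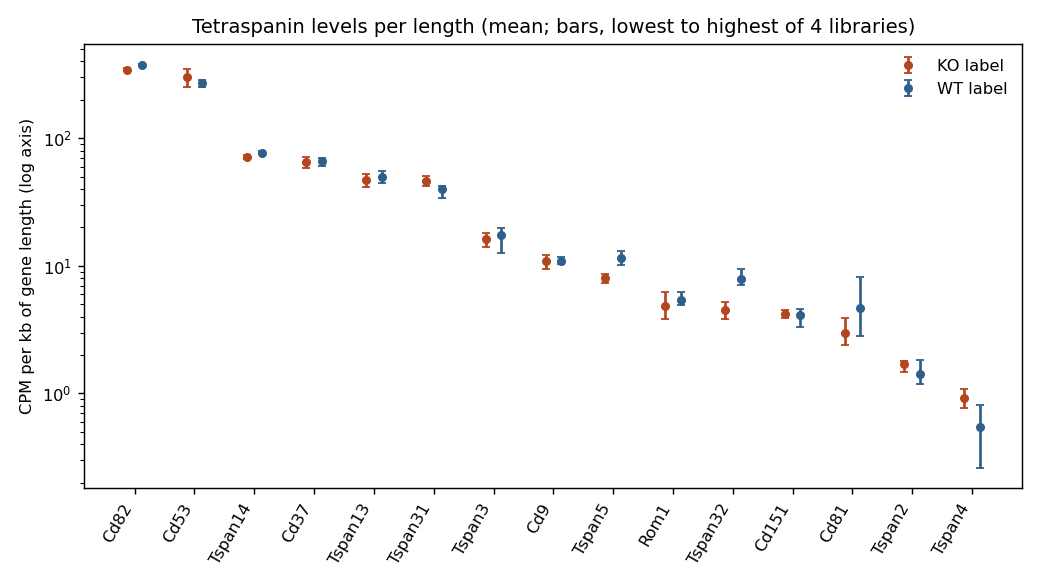
Levels of the 15 measured tetraspanins as CPM per kb of deposited gene length on a log axis, for libraries labelled KO and WT (point, mean; bar, lowest to highest of 4 libraries). Cd82 and Cd53 stand above the rest, and Tspan32 and Tspan5 are among the 5 genes whose KO and WT bars do not meet.

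Tspan32 (Entrez 27027, chromosome 7 from 143004907 to 143019486, GRCm38) was at 8.848, 11.1, 9.387 and 11.98 CPM in KO 1, KO 2, KO 4 and KO 5 and at 21.66, 16.33, 16.72 and 18.58 CPM in WT 1, WT 2, WT 4 and WT 5. Every library labelled KO lay below every library labelled WT. The mean was 10.3 ± 1.46 CPM under the KO label and 18.3 ± 2.43 CPM under the WT label (SD, n = 4 each). The log2 fold change was -0.83 ± 0.12 (SE, edgeR quasi-likelihood test, adjusted p = 0.00223). As a ratio of KO to WT this was 0.564, with a 95% interval of 0.466 to 0.683. The call held in all 8 fits that left out 1 library, with log2 fold changes between -0.91 and -0.74. In bulk RNA, fewer cells that carry a transcript and less of it per cell cannot be told apart.

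For scale, the 11 measured T cell identity genes had a median log2 fold change of -0.11, and all 11354 genes had a median of -0.0030. The fold change was negative for 10 of the 11, against 5785 of all 11354 genes. Of the 11, 0 were called higher and 2 lower (Cd247 and Zap70), where 6.20% and 3.84% of all genes were. Without KO 4 and KO 5, which have the highest summed myeloid markers and are also the libraries of code 8, the log2 fold change of Tspan32 was -0.88 (edgeR adjusted p = 0.00872). Set against rising myeloid sums, Tspan32 was at 8.848 CPM in KO 1 (sum 843.2 CPM), 11.1 CPM in KO 2 (1099 CPM), 11.98 CPM in KO 5 (1329 CPM) and 9.387 CPM in KO 4 (1674 CPM). The part of those cells in the Tspan32 level was not tested.

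Of all 11354 genes, 1140 passed at an adjusted p below 0.05 in edgeR's quasi-likelihood test, 6.20% higher and 3.84% lower under the KO label. Against that background the tetraspanins gave 0 of 9 higher and 1 of 9 lower, a number of calls close to the share over all genes. The count of higher members was 0 with edgeR, DESeq2 and limma-voom alike. At an unadjusted p under 0.05 edgeR gave 1 higher and 2 lower, where 1436 and 1230 of all 11354 genes were. The median log2 fold change of the 9 was -0.017. Libraries of the labels did not overlap for 3 of the 9 (Tspan32, Tspan31 and Cd82), against 16.0% of all genes.

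**Figure D2:**
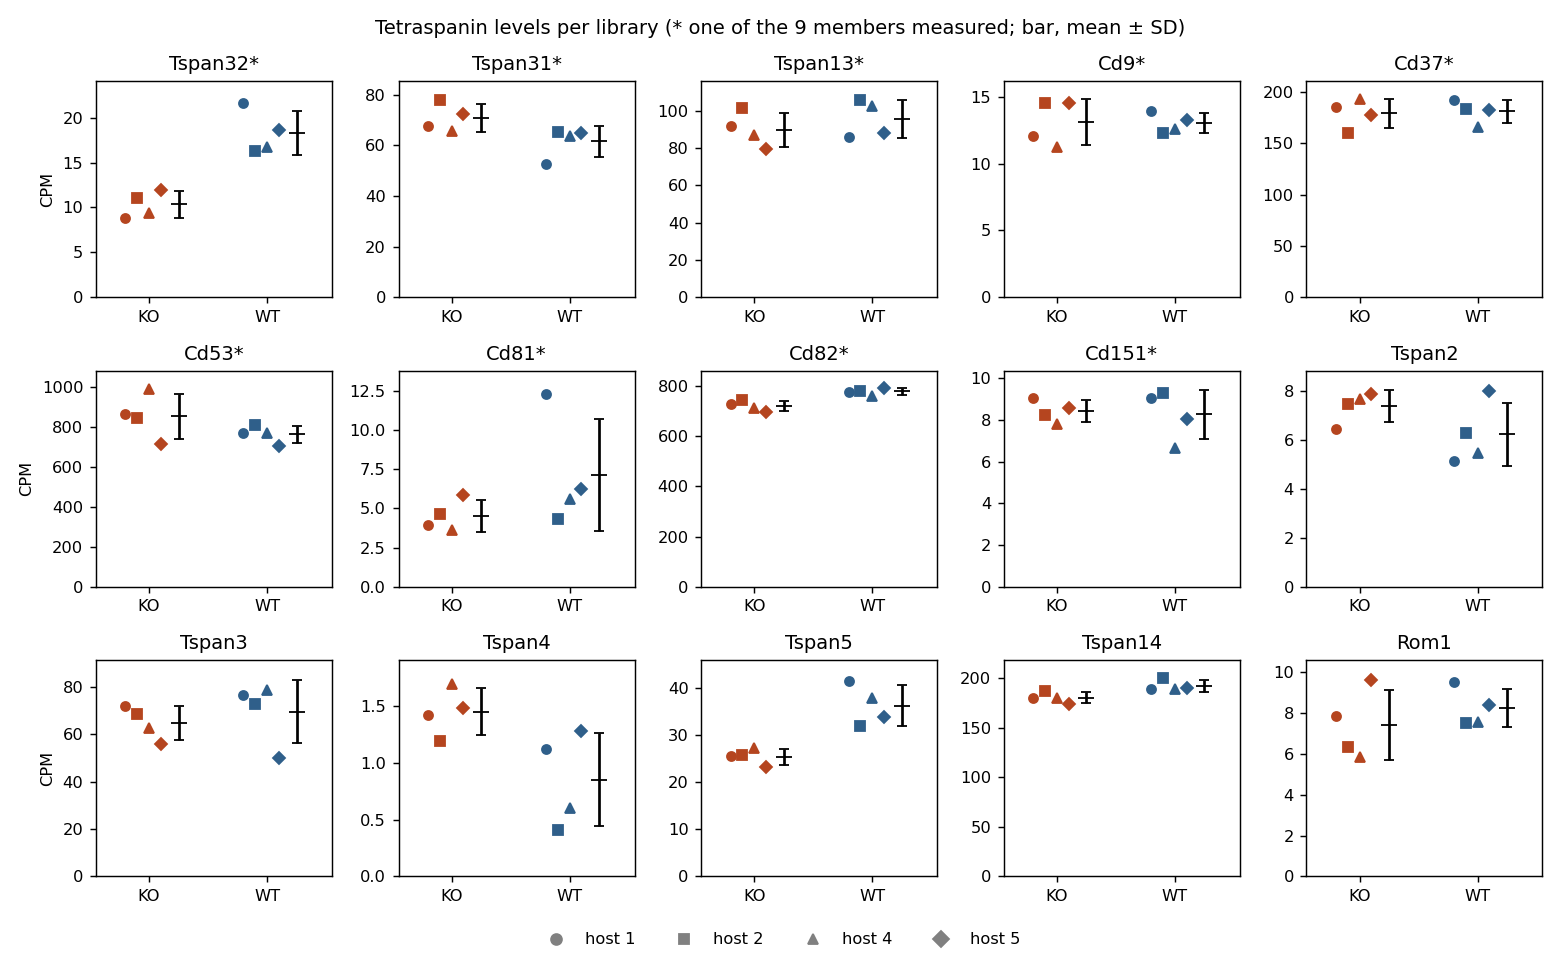
CPM of each measured tetraspanin in every library, KO label at the left of each panel and WT label at the right, with marker shapes for the host number and mean ± SD beside each group. Tspan32 spans 8.848 to 11.98 CPM under the KO label and 16.33 to 21.66 CPM under the WT label, while most other panels overlap.

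Among the leukocyte tetraspanins, Cd53 was at 863.7, 845.5, 986.0 and 712.1 CPM in KO 1, KO 2, KO 4 and KO 5 and at 770.1, 806.6, 768.4 and 706.0 CPM in WT 1, WT 2, WT 4 and WT 5. KO 4 was the highest and KO 5 lay within the WT range, so the labels overlapped. The log2 fold change was 0.16 ± 0.09 (edgeR adjusted p = 0.334), and it was 0.24 at its highest with 1 library left out, still without passing (adjusted p = 0.0713 at the lowest). Cd53 is carried by nearly all leukocytes, and KO 4 also had the highest myeloid sum. The part of those cells in the Cd53 level was not tested.

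Cd37, which partners the receptor Clec7a and is best known from B cells, was at 185.0, 159.8, 193.3 and 177.7 CPM in KO 1, KO 2, KO 4 and KO 5 and at 192.5, 183.8, 165.8 and 182.1 CPM in WT 1, WT 2, WT 4 and WT 5. The ranges nearly coincided, and the difference on the log2 scale was -0.017 ± 0.066 (edgeR adjusted p = 0.926). Its sign changed without KO 2 (0.032) or without WT 1 (0.00995). The 95% interval of the KO to WT ratio was 0.892 to 1.10.

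Cd82 was at 726.2, 742.8, 712.4 and 697.0 CPM in KO 1, KO 2, KO 4 and KO 5 and at 776.6, 780.4, 759.9 and 791.2 CPM in WT 1, WT 2, WT 4 and WT 5. The labels did not overlap, yet the gap was small: the log2 fold change was -0.11 ± 0.04 (edgeR adjusted p = 0.106). DESeq2 gave the same size, -0.11, and passed it (adjusted p = 0.0106). The KO to WT ratio was 0.926 with a 95% interval of 0.873 to 0.982, which is not adjusted for the number of genes tested.

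Cd81, a tetraspanin carried by many cell types, lies 33.3 kb from Tspan32, on chromosome 7 from 143052750 to 143067930. It was at 3.906, 4.635, 3.608 and 5.874 CPM in KO 1, KO 2, KO 4 and KO 5 and at 12.31, 4.306, 5.591 and 6.238 CPM in WT 1, WT 2, WT 4 and WT 5. WT 1 was far above the others, and the remaining libraries labelled WT overlapped those labelled KO. The log2 fold change was -0.66 ± 0.31 (edgeR adjusted p = 0.243), and without WT 1 it was -0.26. The 95% interval of the ratio, 0.391 to 1.03, was wide, so neither a fall as large as that of Tspan32 nor no change at all lay outside it.

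Cd9 binds integrins and immunoglobulin-superfamily partners, and platelets and many myeloid cells carry it. It was at 12.06, 14.57, 11.29 and 14.57 CPM in KO 1, KO 2, KO 4 and KO 5 and at 13.95, 12.33, 12.62 and 13.29 CPM in WT 1, WT 2, WT 4 and WT 5. The labels overlapped fully (log2 fold change 0.0090 ± 0.098, edgeR adjusted p = 0.976). KO 4, with the highest myeloid sum (1674 CPM), had the lowest Cd9, while KO 5, next in that sum (1329 CPM), shared the highest with KO 2. The part of those cells in the Cd9 level was not tested. The sign of the Cd9 fold change turned with total library size as the scaling (-0.0072) and in 4 of the leave-one-out fits, KO 2 (-0.047), KO 5 (-0.045), WT 2 (-0.024) and WT 4 (-0.012).

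Cd151 pairs with laminin-binding integrins and lies on chromosome 7 from 141467362 to 141471481. It was at 9.055, 8.25, 7.803 and 8.572 CPM in KO 1, KO 2, KO 4 and KO 5 and at 9.057, 9.299, 6.678 and 8.039 CPM in WT 1, WT 2, WT 4 and WT 5. The range under the KO label fell inside the range under the WT label (log2 fold change 0.026 ± 0.116, edgeR adjusted p = 0.934).

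Tspan31, whose human counterpart was first known as a gene amplified in sarcomas, overlaps Cdk4 by 2 bases on chromosome 10 (127067287 to 127070972). It was at 67.55, 77.82, 65.62 and 72.36 CPM in KO 1, KO 2, KO 4 and KO 5 and at 52.58, 65.37, 63.65 and 64.84 CPM in WT 1, WT 2, WT 4 and WT 5. Each library labelled KO was above each labelled WT, although KO 4 and WT 2 nearly touched. The log2 fold change of 0.20 ± 0.08 did not pass (edgeR adjusted p = 0.166), nor did that of Cdk4 (0.064, adjusted p = 0.693). Without WT 1, which had the lowest level, the log2 fold change of Tspan31 was 0.13.

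Tspan13 (chromosome 12 from 36014555 to 36042478) was at 91.89, 101.5, 87.03 and 79.57 CPM in KO 1, KO 2, KO 4 and KO 5 and at 86.09, 106.2, 102.6 and 87.99 CPM in WT 1, WT 2, WT 4 and WT 5. The labels overlapped (log2 fold change -0.089 ± 0.090, edgeR adjusted p = 0.637). For the 7 members that did not pass, Cd81 aside, the 95% intervals of the KO to WT ratio lay between 0.817 and 1.30 at their extremes. A fall of the size seen for Tspan32 was outside each of these intervals.

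**Figure D3:**
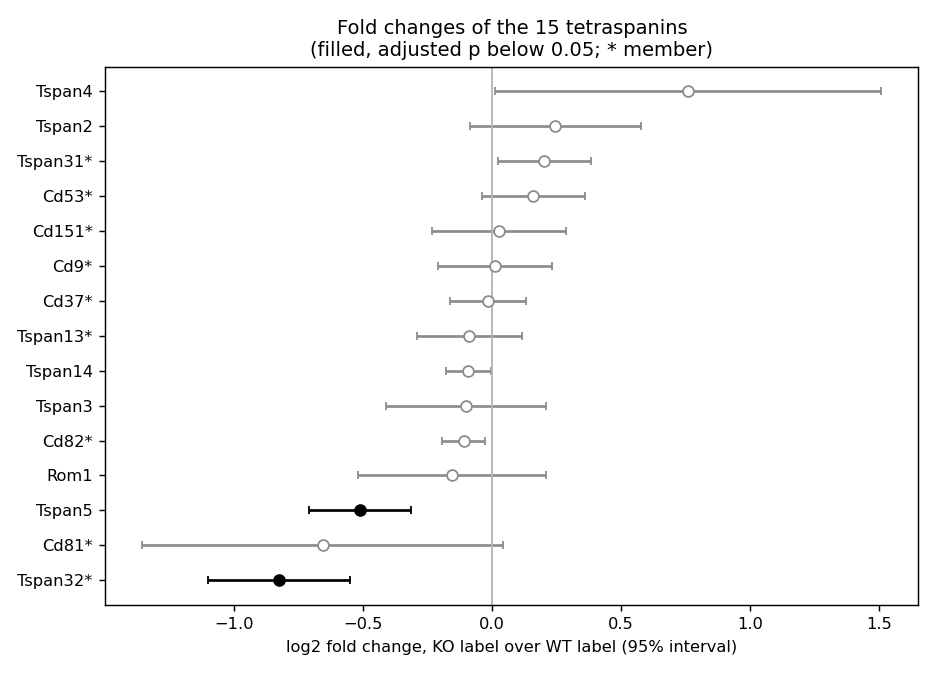
Log2 fold changes of the 15 measured tetraspanins, KO label over WT label, with unadjusted 95% intervals; filled points passed at an adjusted p below 0.05. Tspan32 (-0.83) and Tspan5 (-0.51) are filled, Cd81 (-0.66) and Tspan4 (0.76) have the widest intervals, and the other members lie close to 0.

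The 6 tetraspanins outside the list gave 1 call, lower, where 3.84% of all genes were called lower; nothing is read from 1 of 6. Tspan5 (chromosome 3 from 138741848 to 138904433) belongs with Tspan14 to the subgroup that escorts the membrane protease Adam10 to the cell surface. It was at 25.59, 25.87, 27.25 and 23.19 CPM in KO 1, KO 2, KO 4 and KO 5 and at 41.64, 31.92, 37.94 and 33.88 CPM in WT 1, WT 2, WT 4 and WT 5. No library labelled KO reached the lowest labelled WT, and the log2 fold change was -0.51 ± 0.09 (edgeR adjusted p = 0.00505). It kept its call in all 8 fits that left out 1 library, and without KO 4 and KO 5 it was -0.50 (adjusted p = 0.0268).

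Tspan14 was at 179.8, 187.3, 179.5 and 173.7 CPM in KO 1, KO 2, KO 4 and KO 5 and at 189.1, 200.4, 188.6 and 189.8 CPM in WT 1, WT 2, WT 4 and WT 5. The labels did not overlap. Its log2 fold change, -0.092 ± 0.039, did not pass (edgeR adjusted p = 0.193). Adam10 itself did not pass either (log2 fold change -0.11 ± 0.06, adjusted p = 0.309). Tspan2 (0.24), Tspan3 (-0.10) and Rom1 (-0.15), the last known from photoreceptor discs, had edgeR adjusted p-values of 0.374, 0.737 and 0.647.

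Tspan4, known from the migration tracks called migrasomes, was the lowest of the family, at 1.423, 1.197, 1.701 and 1.487 CPM in KO 1, KO 2, KO 4 and KO 5 and at 1.126, 0.4076, 0.6071 and 1.279 CPM in WT 1, WT 2, WT 4 and WT 5. It rested on 47 to 59 counts in a library labelled KO and 16 to 49 in one labelled WT, and the labels overlapped. Its log2 fold change of 0.76 ± 0.33 did not pass (edgeR adjusted p = 0.206). It shares 292 bases with Chid1, whose log2 fold change was -0.0040.

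Nlrp6 lies on chromosome 7 from 140920902 to 140929192, and 4 of the measured tetraspanins are within 3 Mb of it: Cd151 at 0.538 Mb, Tspan4 at 0.546 Mb, Tspan32 at 2.08 Mb and Cd81 at 2.12 Mb. Of the 72 measured genes in that span, Nlrp6 left out, 4 were higher and 7 lower, Tspan32 included (15.3%), against 10.2% of 783 genes farther along the chromosome. Within 250 kb of Tspan32 the table held Cd81, Tssc4 and Kcnq1ot1. Tssc4 differed by -0.20 ± 0.10 on the log2 scale (edgeR adjusted p = 0.259), and Kcnq1ot1, the antisense RNA of the imprinted Kcnq1 domain, by -0.11 ± 0.21 (adjusted p = 0.822). None of these 3 passed with edgeR, DESeq2 or limma-voom, and 0 had an unadjusted p under 0.05 in edgeR.

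The 15 measured genes within 250 kb of Cd151 gave 0 calls with edgeR, with 3 at an unadjusted p under 0.05, and 1 call each with DESeq2 and limma-voom. The 14 within 250 kb of Tspan4, which lies 3.8 kb from Cd151, gave 0 calls with edgeR, with 2 at an unadjusted p under 0.05, and 1 call each with DESeq2 and limma-voom. Apart from Cd151 itself, these are genes of the Cd151 set counted again. Of all 11354 genes, edgeR called 1140 and limma-voom 1384, and DESeq2 called 1579 of 11353. At an unadjusted p under 0.05 in edgeR, 1436 of all genes were higher and 1230 lower.

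**Figure D4:**
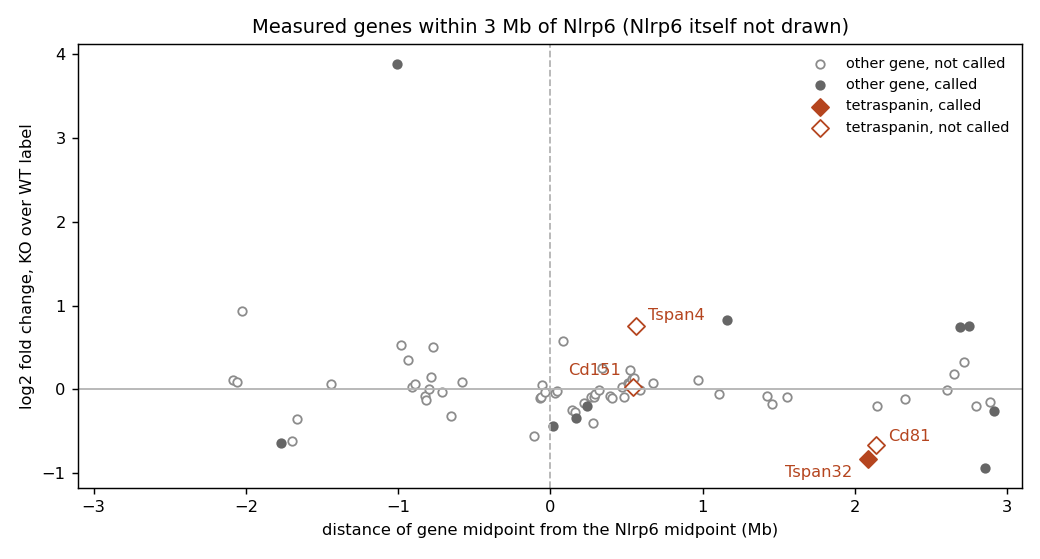
Log2 fold change of each measured gene within 3 Mb of Nlrp6, KO label over WT label, against the distance between gene midpoints in Mb (diamonds, tetraspanins; filled symbols, adjusted p below 0.05). Tspan32, at 2.09 Mb, is filled at -0.83 beside an open Cd81 at -0.66, and Cd151 lies at 0.026.

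Genes whose pattern over the 8 libraries was most like that of Tspan32 were ranked by the root mean square difference of centred log2 CPM, among 10095 genes. They were Rapgef5 (0.088 log2 units), Itih5 (0.099), C77080 (0.124), Car5b (0.140) and Slc25a13 (0.143), which lie on chromosomes 12, 2, 4, X and 6. The choice of genes fixes their direction. Itih5, for example, was at 11.7 ± 1.96 CPM in libraries labelled KO and 21.7 ± 1.47 CPM in those labelled WT (SD, n = 4 each).

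Of the proteins known to bind tetraspanins, 28 of 30 listed were measured, and edgeR called 2 higher and 4 lower, where 6.20% and 3.84% of all genes were. Their median log2 fold change was -0.078. The 6 calls became 3 without KO 1 and up to 8 with another library left out. With the description code as a term they became 2, and without KO 4 and KO 5 they became 5. Ptgfrn, an immunoglobulin-superfamily partner of Cd9 and Cd81, was at 13.94, 16.65, 15.49 and 9.076 CPM in KO 1, KO 2, KO 4 and KO 5 and at 25.36, 28.56, 24.11 and 21.46 CPM in WT 1, WT 2, WT 4 and WT 5. Its libraries did not overlap, and the log2 fold change was -0.85 ± 0.17 (edgeR adjusted p = 0.0112). With the description code as a term it was -0.70 and did not pass (adjusted p = 0.0882), while the fit without KO 4 and KO 5, which gives the same estimate, passed (adjusted p = 0.0122). Its relative Igsf8, the other main partner of this class, did not pass (0.13 ± 0.13, adjusted p = 0.626).

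Prkca, a protein kinase C that tetraspanins recruit, was at 50.81, 49.71, 46.26 and 48.58 CPM in KO 1, KO 2, KO 4 and KO 5 and at 93.09, 73.63, 78.44 and 79.79 CPM in WT 1, WT 2, WT 4 and WT 5. The labels were well apart (log2 fold change -0.73 ± 0.07, edgeR adjusted p = 0.000381). The related Prkcb was lower by a smaller amount (-0.23 ± 0.06, adjusted p = 0.0449), and only the fit without KO 5 kept that call among the 8 that left out 1 library, the others giving adjusted p-values from 0.0502 without KO 4 to 0.125 without WT 4. Itgb2, the shared beta chain of the leukocyte integrins, was at 998 ± 30.5 CPM under the KO label and 1140 ± 34.3 CPM under the WT label (SD, n = 4 each; log2 fold change -0.20 ± 0.04, edgeR adjusted p = 0.0158). That call ended without KO 1 (-0.18, adjusted p = 0.0535) and with the description code as a term (-0.22, adjusted p = 0.0552), at folds of much the same size. It held in the fit without KO 4 and KO 5 (-0.22, edgeR adjusted p = 0.0433).

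Clec7a, the beta-glucan receptor that Cd37 holds at the surface of myeloid cells, was at 13.79, 24.75, 47.11 and 30.93 CPM in KO 1, KO 2, KO 4 and KO 5 and at 3.794, 2.955, 1.847 and 3.393 CPM in WT 1, WT 2, WT 4 and WT 5 (log2 fold change 3.28 ± 0.37, edgeR adjusted p = 0.000553). The order of its libraries labelled KO was that of the myeloid sum, and the part of those cells was not tested. Cd47, a partner of integrins, was higher by 0.22 ± 0.06 (adjusted p = 0.0381), a call that 6 of the 8 leave-one-out fits lost: those without KO 1, KO 2, KO 5, WT 1, WT 2 or WT 4 (adjusted p from 0.0605 to 0.124).

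**Figure D5:**
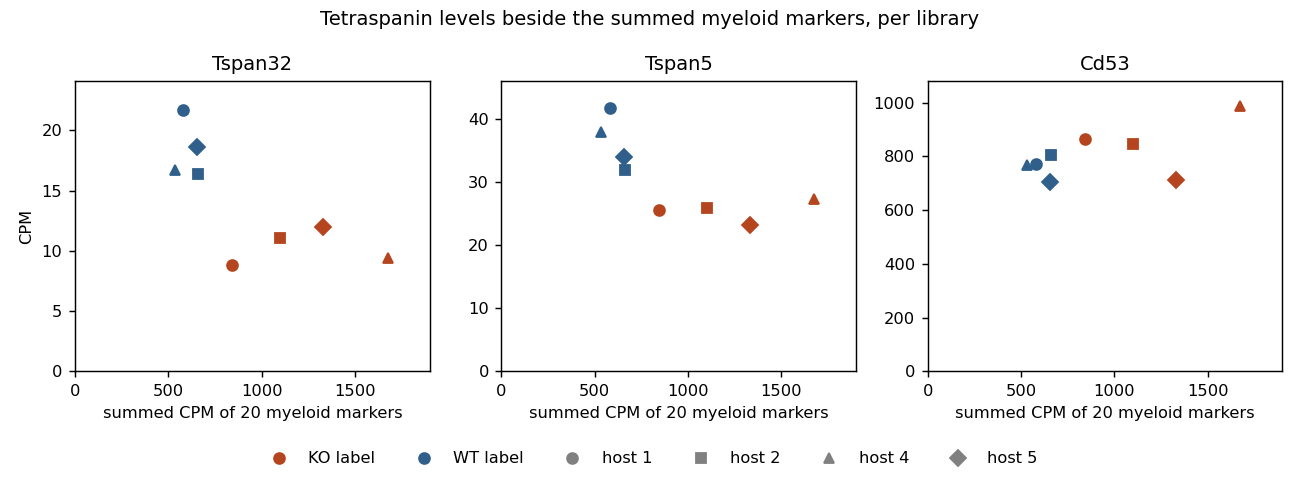
CPM of Tspan32, Tspan5 and Cd53 in each library against the summed CPM of 20 myeloid markers (colour, label; shape, host). The libraries labelled KO lie at myeloid sums of 843.2 to 1674 CPM; Tspan32 there stays between 8.848 and 11.98 CPM, while Cd53 is highest in KO 4.

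In the list of late endosome and vesicle genes that accompany Cd63, 11 of 12 were measured, 1 was higher and 1 lower, where 6.20% and 3.84% of all genes were. Lamp1, a lysosomal membrane glycoprotein, was at 151 ± 11.5 CPM under the KO label and 99.4 ± 5.07 CPM under the WT label (SD, n = 4 each; log2 fold change 0.60 ± 0.06, edgeR adjusted p = 0.000415). Rab27a, a GTPase of granule release, was at 186 ± 8.35 CPM under the KO label and 217 ± 5.86 CPM under the WT label (log2 fold change -0.22 ± 0.04, adjusted p = 0.00985). Sdcbp, the syntenin adaptor that binds Cd63, did not pass (0.11 ± 0.06, adjusted p = 0.351).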

How the data were processed

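The authors deposited raw counts per gene (whole numbers with differing totals) with Entrez identifiers, symbols and gene lengths. Per the submitters' processing notes, reads were aligned with STAR to mm10, and per the labels' protocols the libraries were stranded TruSeq mRNA libraries read as single reads of 81 bases. The sources used here name no counting tool, annotation or strand setting, so reads of overlapping or antisense genes cannot be told apart. For every gene of the table the fourth-highest CPM was at least 0.987.

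Counts of all 11354 genes were fitted in edgeR 4.0.16 (R 4.3.3; TMM factors, filterByExpr, which kept all genes, estimateDisp, glmQLFit and glmQLFTest) on the label alone, with Benjamini-Hochberg adjustment over all genes and a call at an adjusted p below 0.05. The script was tested on simulated data. Standard errors are the absolute log2 fold change over the square root of F. Intervals of 95% use the test's degrees of freedom and are unadjusted. Log2 CPM had a prior count of 2. Alternatives were RLE or total-size scaling, no filter or 10 CPM in 4 libraries, DESeq2 1.42.0, limma-voom 3.58.1, the host number as a block, the code 7 or 8 of the sample descriptions as a term, a 1.2-fold threshold (glmTreat) and each library left out. Positions come from RefSeq GRCm38.p6, the build mm10 names, with 11337 genes matched by identifier. Per the titles, the 4 libraries of a label came from different hosts; whether the transferred cells came from separate donors is not stated, so p-values measure the spread between hosts. No replicate pair agreed within sampling noise. Genes named are the tetraspanins, called partner or vesicle genes, neighbours within 250 kb on chromosome 7 within 3 Mb of Nlrp6, and the 5 genes most like Tspan32 (mean log2 CPM 1 or more). Igsf8, Adam10, Sdcbp, Cdk4, Chid1 and the T cell, macrophage, monocyte, dendritic cell, neutrophil and platelet markers were named besides, after their values were seen. The members and lists were chosen with earlier results of these data known.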

Additional observations from a re-analysis of the deposited data

Results flagged for a closer look

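In 4 of the 48 groups of 4 libraries examined, 1 library stood far from the rest, by the share of the group's range that its gap to the nearest library took (Dixon's test at 95%); chance gives about 1 in 20 groups. Tspan31 in WT 1, at 52.6 CPM, lay below a span of 63.6 to 65.4 CPM in the remaining WT-labelled libraries, a gap of 0.865 of the range. For Tspan14 the library apart was WT 2, at 200.4 CPM, with WT 1, WT 4 and WT 5 between 188.6 and 189.8 CPM (0.896). For Itgb2 it was KO 1, at 952.6 CPM, with KO 2, KO 4 and KO 5 between 1009 and 1017 CPM (0.883). Prkcb stood apart in WT 4, at 283.3 CPM, the remaining WT-labelled libraries being at 257.9 to 260.2 CPM (0.909).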

How the results depend on the processing

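Tspan32 kept its direction and its call in each alternative, with log2 fold changes from -0.91 to -0.74, and so did Tspan5, from -0.58 to -0.45. The number of tetraspanins of the list that passed was 1 in each alternative other than DESeq2, which gave 2 by adding Cd82; the cause was not tested. With 1 library left out it was 1 at the lowest and 1 at the highest, and for the other tetraspanins likewise. Partner genes that passed numbered 6, or 2 with the description code as a term and 5 without KO 4 and KO 5. With 1 library left out they numbered 3 (without KO 1) to 8. The cause was not tested. Of all genes, 1140 passed, against 584 of the 8512 kept by the filter at 10 CPM (7 of the 9 tetraspanins among them) and 745 with the code as a term. Small fold changes that did not pass turned sign, Tspan13 with the code (0.0151) and without KO 4 and KO 5 (0.0150), a setting chosen after seeing the data that gives the same estimates as the code term, since KO 4 and KO 5 are the libraries of code 8, Tspan3 likewise (0.0156 and 0.0153), Cd9 with total library size (-0.00717), and Cd151 without KO 1 (-0.0114) or WT 4 (-0.0686). Ranges with 1 library left out were -0.0471 to 0.072 for Cd9, -0.063 to 0.032 for Cd37 and -0.069 to 0.081 for Cd151. The host numbers were not taken as pairs, since the labels do not say that a number marks a single mouse. Deviations of same-numbered libraries from their label means correlated from -0.138 to 0.256, above 0.1 for 2 of 4 pairs. For a KO and a WT library of different numbers the range was -0.265 to 0.198, so these correlations do not settle the pairing. With the host number as a replicate block the tetraspanins that passed were again 1 of the list and 1 other, Tspan32 at -0.83 (edgeR adjusted p = 0.0156), partner genes 6, and Prkcb lost its call (adjusted p = 0.107). Tspan4, with 16 to 59 counts in a library, was the least precisely measured tetraspanin.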
